A study of Mus musculus with 10 samples.

Results

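The ephrins, Eph receptors, semaphorins, plexins, slits, robos, netrins, Unc5 receptors and netrin-G proteins were examined in the hippocampus of mice that differed in open-field activity. Members were all probe sets whose platform annotation gives exactly 1 gene symbol and whose symbol belongs to one of these families, which gave 147 of 45037 non-control probe sets and 68 of 18193 genes. A probe set is a group of short probes on the array that together give 1 signal for a transcript. One member, Plxna4os1, is the antisense transcript of Plxna4. Ephb2 has no probe set of its own among the members and was not analysed here.

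All mice were inbred female Balb c/J animals from Jackson, born on the same day, and the labels name no treatment, allele or age. They were ranked by their open-field behaviour over several days and lighting conditions, and the labels name 5 of them High Exploration and 5 Low Exploration. RNA of the whole hippocampus of each mouse was hybridised to 1 Affymetrix mouse array, so every comparison rests on 5 arrays against 5, and this number limits its precision. The groups were selected by behaviour, so behaviour and anything else that varied with it between the mice cannot be told apart.

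Axon guidance molecules tell growing axons where to go. Ephrins are held in the membrane and bind Eph receptors on a neighbouring cell, with signals passing in both directions, while semaphorins bind plexins, slits bind robos, and netrins attract through Dcc or repel through Unc5 receptors. In the adult hippocampus many of them remain in use at synapses, on dendritic spines, in blood vessels and in myelinating cells. The comparison asks whether the signals of these genes differ between mice of the same strain that explore more or less.

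No member passed the test. Of the 147 probe sets, 84 from 50 genes had a mean log2 signal above 7.43, the median of all probe sets, and were tested with 22518 probe sets in limma. With Benjamini-Hochberg adjustment 0 of 84 had an adjusted p under 0.05, against 3 of 22518 in all, or 0.0133%, and the smallest adjusted p of a member was 0.058. At an unadjusted p under 0.05 there were 7 members higher in High Exploration (8.33%, against 9.67% of all tested) and 16 lower (19.0%, against 20.5%). All 5 High arrays lay above all 5 Low arrays for 3 members (3.57%, against 2.14% of all tested) and below them for 5 (5.95%, against 6.69%). Each of these shares lay within a few percentage points of the background.

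The scale of the arrays moved with the groups. The median difference, High minus Low Exploration, was -0.31 on the log2 scale over all tested probe sets and -0.25 over the 84 members, 28 of which were higher and 56 lower. It varied with signal, at 0.006 over all probe sets above the 75th percentile of mean signal and -0.62 over all those below the filter. After each array was centred on its median, the median of all tested probe sets was 0.23 and 54 members were higher. At equal hybridisation controls it was 0.32 and 59 were higher, and with quantile normalisation or cyclic loess it was -0.01 and -0.02 and 39 were higher. Centring removes -0.54 from every difference and equal hybridisation controls remove -0.63, the same for all probe sets. A positive difference, or a difference further below 0 than that constant, therefore keeps its sign under these scalings. At an unadjusted p under 0.05 the balance turned round, to 18 members higher and 4 lower with centred arrays (23.0% and 5.74% of all tested) and 16 higher and 3 lower at equal hybridisation controls (23.8% and 3.61%). Spiked hybridisation controls averaged 13.4 ± 0.31 log2 units over the High arrays and 14.1 ± 0.30 over the Low arrays (SD, 5 per group, two-sided exact permutation p = 0.0159). Poly-A controls, added to the RNA before labelling, differed more, at 12.4 ± 0.48 in High and 14.0 ± 0.45 in Low Exploration, with no overlap (High minus Low -1.63, exact permutation p = 0.00794). The log2 difference between 3′ and 5′ Gapdh probe sets, a sign of how far RNA is degraded or shortened in labelling, was 4.72 ± 0.48 and 3.72 ± 0.23 (exact permutation p = 0.0159). As a description of the tissue, all 5 listed neuron marker genes had probe sets, 13 of 15 above the filter. Of 4 dentate granule cell markers 3 were above it. The 13 neuron probe sets had a median of -0.86, with 3 higher and 10 lower. Of the 7 tested dentate probe sets 3 were higher and 4 lower. Those of Calb1 disagreed, from 1.51 with no overlap on 1417504_at to -1.04 on 1458836_at. Prox1 was lower on 1437894_at (-0.74), and below the filter on 1421336_at (-2.25, no overlap) and 1457432_at (-1.44). Among markers of other tissue, the 4 tested choroid plexus probe sets had a median of 0.86, with 3 higher and 1 lower. The 6 tested thalamus probe sets had a median of -0.75, with 1 higher and 5 lower. The part of these measures in the results below was not tested. Differences are therefore given as deposited, with the scaled values where they matter.

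**Figure D1:**
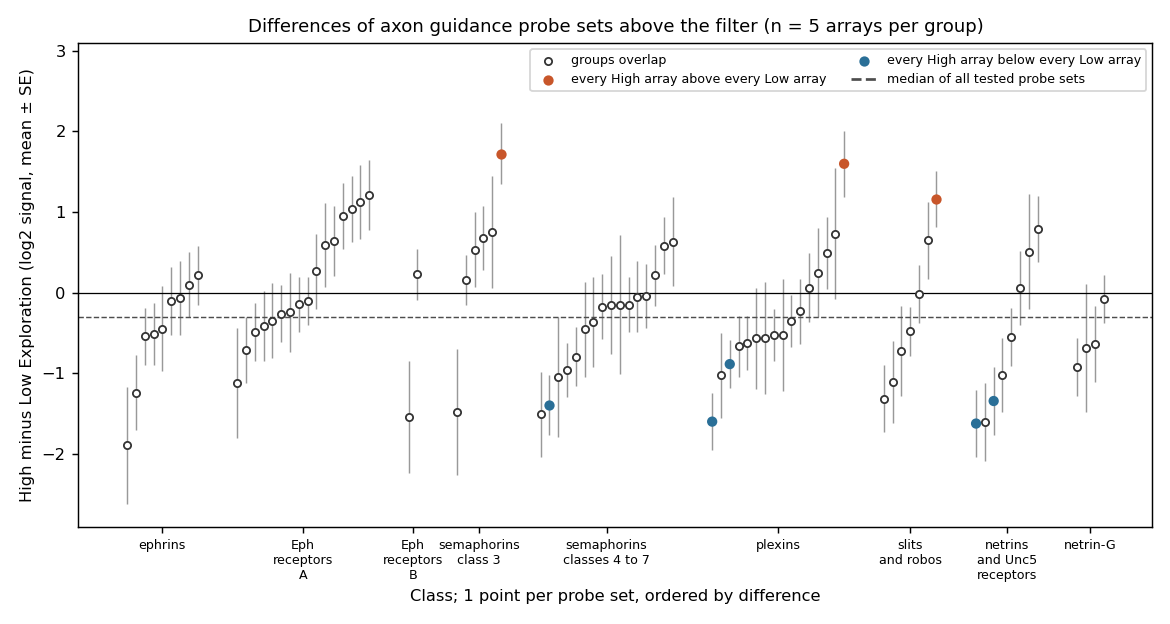
Difference between High and Low Exploration (log2 signal, with SE) for the 84 tested probe sets by class. Filled points are the 8 probe sets whose groups did not overlap, 3 higher and 5 lower, and the dashed line at -0.31 is the median of all tested probe sets. Class 3 semaphorins lie mostly above the line, where 3 of their points are of Sema3e. Each of the other classes with more than 2 probe sets has points on both sides of it.

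The 8 probe sets without overlap belonged to 7 genes: Sema3e, Plxnb3 and Slit2 on the higher side, and Plxnb1, Sema4d, Unc5b and Ntn5 on the lower side. Their adjusted p-values in limma were between 0.058 and 0.088. The annotated promoters of Sema3e and Plxnb1, which have the smallest adjusted p in each direction, are printed here to give the sequence at the start of each gene. They come from RefSeq on GRCm38.p6 and hold 300 bases around the annotated start, most of them before it, 5′ to 3′ on the plus strand of chr5:14025026-14025325 and chr9:109095186-109095485. Capitals mark the GC box GGGCGG, searched on both strands.
Sema3e: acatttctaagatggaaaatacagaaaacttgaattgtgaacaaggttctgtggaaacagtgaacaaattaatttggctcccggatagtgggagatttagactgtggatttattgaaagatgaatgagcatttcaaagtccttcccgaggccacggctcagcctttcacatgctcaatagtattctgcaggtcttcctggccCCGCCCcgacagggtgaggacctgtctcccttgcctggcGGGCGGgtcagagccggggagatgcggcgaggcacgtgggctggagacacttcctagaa
Plxnb1: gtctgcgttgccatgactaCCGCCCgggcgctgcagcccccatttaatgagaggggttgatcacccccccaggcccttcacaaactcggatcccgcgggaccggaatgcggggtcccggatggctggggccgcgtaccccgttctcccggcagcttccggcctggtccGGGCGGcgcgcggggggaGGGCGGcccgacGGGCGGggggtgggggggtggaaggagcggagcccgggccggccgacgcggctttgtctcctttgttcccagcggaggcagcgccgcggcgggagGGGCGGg

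The GC box occurred 2 times in the Sema3e window and 5 times in the Plxnb1 window. Of 32851 RefSeq promoter windows of 300 bases, 35.7% held at least 1, and of the 58 member genes with a window, 42 held at least 1 in the first window listed (72.4%). The first share counts every window and the second 1 window per gene, so they cannot be set against each other. GC content was 50.7% at Sema3e and 74.7% at Plxnb1. It is not given for other promoters, and no relation of base composition to direction was tested. The match is a description of letters and no binding was measured.

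Class 3 semaphorins are secreted and repel axons, most of them through neuropilins and A-type plexins. Sema3e differs in that it binds Plxnd1 directly. On probe set 1442226_at the log2 signals of Sema3e in High Exploration arrays 1 to 5 were 12.95, 13.02, 11.96, 12.67 and 12.18, and in Low Exploration arrays 1 to 5 they were 10.89, 10.96, 10.42, 11.71 and 10.17. Every High array was above every Low array, and the closest were 11.96 and 11.71. The difference was 1.72 with an SE of 0.38 (95% interval 0.91 to 2.54), or 3.30-fold on the linear scale, at a limma adjusted p of 0.058. It was between 1.34 and 2.35 under the alternatives, with adjusted p from 0.038 to 0.13, and under quantile normalisation the groups overlapped.

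The other tested probe sets of Sema3e were also higher, by 0.68 (1419717_at) and 0.75 (1427673_a_at), but their groups overlapped. One more, 1425906_a_at, lay below the signal filter and differed by 1.76. Among the 23 genes with at least 2 tested probe sets, only Sema3e and Plxnb3 had all of them higher as deposited. Plxnd1, the direct receptor of Sema3e, had 1 probe set, below the filter, with a difference of 0.23.

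Among the rest of class 3, Sema3c and Sema3d had differences of 0.16 and 0.53 on their tested probe sets. Sema3f was measured above the filter only by 1438947_x_at, a type of probe set that can cross-hybridise with unrelated transcripts. Its signals ran from 11.51 to 15.21 in High and from 13.27 to 16.31 in Low Exploration, a difference of -1.47 with an SE of 0.78 (limma adjusted p = 0.21). All 3 probe sets of Sema3a, a repellent that is also stored in the matrix around inhibitory neurons, were below the filter and gave -0.31, -1.97 and -0.36. Of the 6 tested class 3 probe sets 5 were higher, 3 of them of Sema3e, and the median of the 6 was 0.61. Over all 18 class 3 probe sets, with those below the filter, 8 were higher and 10 lower, with a median of -0.13.

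**Figure D2:**
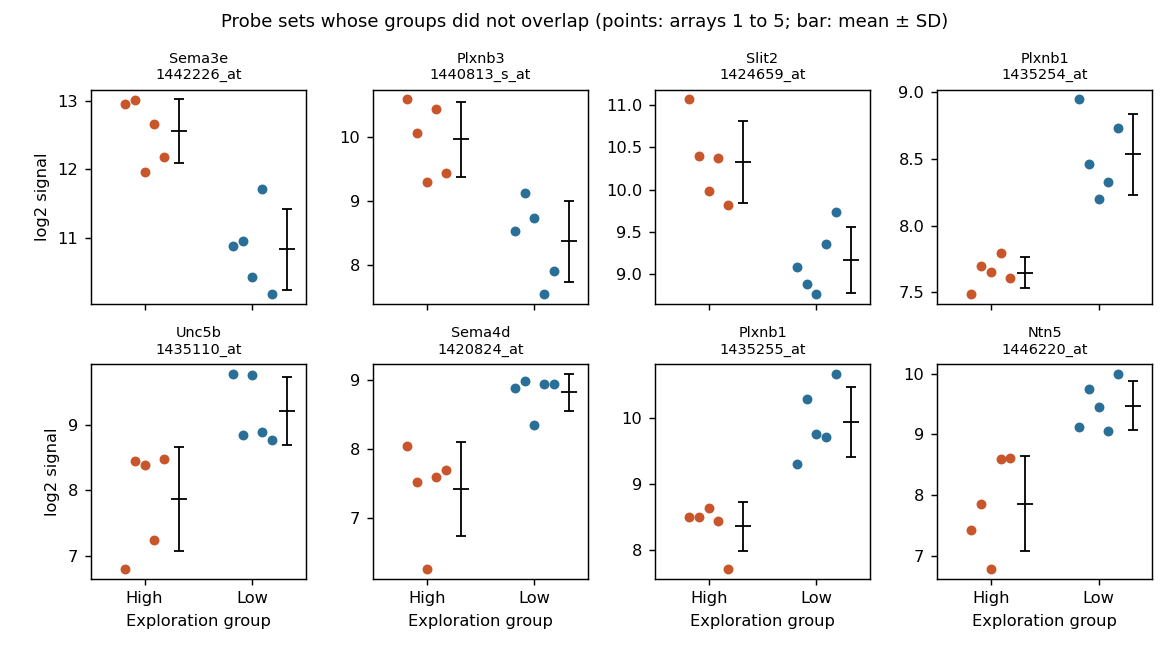
Log2 signal of the 8 probe sets whose groups did not overlap, 1 panel each with its own axis; points are arrays 1 to 5 of each group and bars are mean ± SD. The gap between groups is narrow for Slit2 (9.81 against 9.73) and Sema3e (11.96 against 11.71) and wider for Plxnb1 on 1435255_at (8.63 against 9.31).

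Plexins are the semaphorin receptors and act on the cytoskeleton through small GTPases. Plxnb1, the high-affinity receptor of Sema4d, had log2 signals on 1435255_at of 8.50, 8.49, 8.63, 8.43 and 7.70 in High Exploration and 9.31, 10.29, 9.76, 9.72 and 10.68 in Low Exploration. The highest High array, 8.63, was below the lowest Low array, 9.31. The difference was -1.60 with an SE of 0.36 (95% interval -2.37 to -0.83), 3.03-fold lower on the linear scale, at a limma adjusted p of 0.059. It stayed between -1.76 and -0.97 under the alternatives, whose adjusted p ranged from 0.037 to 0.13, and the groups did not overlap under any of the 4 scalings.

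The second Plxnb1 probe set, 1435254_at, read 7.49, 7.70, 7.65, 7.79 and 7.61 in High and 8.95, 8.46, 8.20, 8.33 and 8.73 in Low Exploration. The groups again did not overlap, with a difference of -0.89 (SE 0.30, limma adjusted p = 0.088). Its difference was only -0.26 at equal hybridisation controls, and its groups overlapped under all 4 scalings.

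Sema4d is a transmembrane semaphorin with roles in synapse formation, immune cells and oligodendrocytes. On 1420824_at its signals were 8.04, 7.52, 6.27, 7.59 and 7.70 in High and 8.89, 8.98, 8.35, 8.94 and 8.94 in Low Exploration. All High arrays were below all Low arrays. The difference was -1.40 (SE 0.37, 95% interval -2.20 to -0.59, limma adjusted p = 0.065), and the groups overlapped under all 4 scalings, where it was between -0.91 and -0.77. The remaining Sema4d probe sets, below the filter, differed by -1.43 and -0.30. As deposited, Sema4d on 1420824_at and both Plxnb1 probe sets were lower with no overlap, as were 6.69% of all tested. The groups of the remaining Sema4d probe sets overlapped. Whether ligand and receptor moved together was not tested.

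Plxnb3, a B-type plexin known from oligodendrocytes, lay in the opposite direction to Plxnb1. Its 1440813_s_at signals were 10.60, 10.07, 9.30, 10.45 and 9.45 in High and 8.54, 9.14, 8.74, 7.55 and 7.91 in Low Exploration. No Low array reached a High array, the closest being 9.14 and 9.30. The difference was 1.60 (SE 0.41, 95% interval 0.72 to 2.48, limma adjusted p = 0.064) and 1.39 to 2.23 under the alternatives, with adjusted p from 0.04 to 0.14. The groups did not overlap under any of the 4 scalings. The other Plxnb3 probe set, 1418750_at, differed by 0.49 with overlapping groups. An s in a probe set name marks probes that can match more than 1 transcript.

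Markers of oligodendrocytes are given beside Plxnb3 and Sema4d. Of the list of 5 genes, 4 had a probe set of their own and 12 probe sets were tested, of which 0 passed limma adjustment. At an unadjusted p under 0.05, 2 were higher (16.7%, against 9.67% of all tested) and 2 lower (16.7%, against 20.5%). Their median was -0.06, against -0.31 over all tested. Mbp on 1425263_a_at (-1.60) and Mobp on 1436263_at (-1.93) were lower with no overlap, while Mbp on 1433532_a_at (0.92) and Mobp on 1433785_at (0.96) were the 2 higher ones, so probe sets of the same marker disagreed. The summed log2 level of the list ran from 16.7 to 17.7 in High and from 16.3 to 17.9 in Low Exploration, and no marker signal was 0. The part of oligodendrocytes in the Plxnb3 and Sema4d values was not tested, and in bulk tissue fewer cells of a type and less RNA per cell cannot be told apart.

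A-type plexins pair with neuropilins or bind class 6 semaphorins. None of their 8 tested probe sets had an unadjusted p under 0.05, and their differences ran from -0.67 to 0.73. Plxna4, a receptor for Sema3a and Sema6a, gave -0.57 (1441371_at) and -0.56 (1457840_at), both of which turned positive at equal hybridisation controls (0.06 and 0.07). Its antisense transcript Plxna4os1 was below the filter, with a difference of -0.87. Plxna2 had 4 tested probe sets, of which 2 were higher and 2 lower. Plxnc1, the receptor of Sema7a, gave -1.03, -0.23 and 0.06.

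Class 4 to 7 semaphorins are mostly held in the membrane. Of their 16 tested probe sets 13 were lower and 4 had an unadjusted p under 0.05, all lower (25%, against 20.5% of all tested). With arrays centred on their medians, or at equal hybridisation controls, only 5 of the 16 were lower. Sema6d, a ligand of A-type plexins, read 6.49, 7.53, 7.37, 8.58 and 5.27 in High and 8.68, 8.58, 7.93, 8.75 and 8.83 in Low Exploration on 1459318_at. The groups overlapped through High array 4, and the difference was -1.51 (SE 0.53, limma adjusted p = 0.095). The other Sema6d probe sets in the test gave -0.96 and -0.15. Sema6c on 1451898_a_at differed by -0.79. Sema7a, a lipid-anchored semaphorin, had a difference of -0.05 on 1459903_at, which was positive under all 4 scalings, from 0.40 to 0.58.

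Slits are secreted ligands of the robo receptors and repel axons, and they also shape dendrites and vessels. The Slit2 probe sets went in opposite directions. On 1424659_at Slit2 read 11.06, 10.39, 9.98, 10.38 and 9.81 in High and 9.09, 8.89, 8.76, 9.36 and 9.73 in Low Exploration, every High array above every Low array. The difference was 1.16 (SE 0.35, 95% interval 0.41 to 1.91, limma adjusted p = 0.075) and 0.97 to 1.79 under the alternatives, with adjusted p from 0.045 to 0.16.

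On 1458140_at Slit2 instead read 8.55, 8.51, 9.09, 7.90 and 8.56 in High and 10.79, 9.05, 9.0, 10.00 and 10.34 in Low Exploration. The groups overlapped through High array 3, and the difference was -1.31 (SE 0.41, 95% interval -2.21 to -0.42, limma adjusted p = 0.080). Both signs held under all 4 scalings, though centring and equal hybridisation controls move both differences by the same amount and could not have turned them. Slit2 on 1451430_at, below the filter, differed by 0.18. No direction for Slit2 as a gene can be given from these arrays.

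Slit1 differed by -1.11 on its tested probe set (SE 0.51, limma adjusted p = 0.16) and by 1.41 on another below the filter. Among the receptors, Robo1 gave 0.65 on 1427231_at and -0.02 on 1445549_at, the latter at 0.52 with arrays centred on their medians and 0.61 at equal hybridisation controls. Robo2 gave -0.72 and Robo4, a robo of blood vessels, -0.48, none with an unadjusted p under 0.05.

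Netrins and their Unc5 receptors showed lower values for Ntn5 and Unc5b. Ntn5, a lesser-known netrin, read 7.43, 7.85, 6.78, 8.60 and 8.61 in High and 9.13, 9.75, 9.45, 9.06 and 10.00 in Low Exploration on 1446220_at. All High arrays were below all Low arrays. The difference was -1.62 (SE 0.41, 95% interval -2.51 to -0.74, limma adjusted p = 0.064), between -1.81 and -0.995 under the alternatives, with adjusted p from 0.04 to 0.14, and the groups did not overlap under any of the 4 scalings.

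Unc5b, a netrin receptor of neurons and of vessel tips, read 6.80, 8.44, 8.38, 7.24 and 8.48 in High and 9.78, 8.85, 9.77, 8.89 and 8.78 in Low Exploration on 1435110_at. The groups did not overlap, and the difference was -1.34 (SE 0.43, limma adjusted p = 0.080). Its second probe set, 1453269_at, read 6.27, 7.20, 8.21, 8.09 and 9.13 in High and 8.98, 9.09, 9.77, 9.28 and 9.81 in Low Exploration. The groups overlapped only through High array 5, with a difference of -1.61 (SE 0.49, limma adjusted p = 0.075). The groups of 1435110_at overlapped under all 4 scalings, where its difference ran from -0.93 to -0.72.

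Endothelial markers are given beside Unc5b. All 4 listed genes had probe sets and 5 were tested, of which 0 passed limma adjustment. At an unadjusted p under 0.05, 0 were higher (against 9.67% of all tested) and 2 lower (40%, against 20.5%). Their median was -0.65, against -0.31 over all tested. Kdr, the main receptor of vascular endothelial growth factor, differed by -1.39, and the probe sets of Flt1, another receptor of that factor, ran from -1.68 to 0.83. The summed log2 level of the list was 10.4 to 11.3 in High and 11.2 to 12.0 in Low Exploration, and no marker signal was 0. The part of vessels in the Unc5b values was not tested.

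The other Unc5 receptors spread on both sides of 0. Unc5c gave -1.02 and -0.55, Unc5a 0.06, and Unc5d, a receptor known from migrating cortical neurons, 0.79 (SE 0.41, limma adjusted p = 0.20). Both probe sets of Ntn1, the classical netrin, were below the filter and gave -1.07 and 0.24, and Ntn4 gave 0.51 on its tested probe set.

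Netrin-G proteins are lipid-anchored, do not bind the classical netrin receptors, and instead bind Lrrc4c (for Ntng1) and Lrrc4 (for Ntng2) across the synapse. All 4 of their tested probe sets were lower as deposited, and 3 of them with centred arrays or at equal hybridisation controls. Ntng1 on 1426338_a_at read 7.79, 8.33, 7.93, 8.61 and 8.04 in High and 9.08, 9.64, 9.04, 9.40 and 8.14 in Low Exploration. Only Low array 5 lay within the High range, and the difference was -0.92 (SE 0.36, limma adjusted p = 0.11). Ntng1 on 1430779_at and 1449286_at gave -0.64 and -0.08, the latter at 0.46 with centred arrays and 0.55 at equal hybridisation controls. Ntng2 gave -0.68 with an SE of 0.79. Lrrc4c, the partner of Ntng1, was lower with no overlap on 1456759_at, by -1.39 (SE 0.49, limma adjusted p = 0.095), and differed by -0.13 on 1437201_at. Below the filter, Lrrc4c on 1437825_at was higher by 0.57, and Lrrc4 gave -0.32 on 1416097_at and -0.15 on 1435832_at.

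Ephrins of the A class are lipid-anchored and those of the B class span the membrane. Of the 9 tested ephrin probe sets 7 were lower, 2 with an unadjusted p under 0.05 (22.2%, against 20.5% of all tested), and all groups overlapped. With centred arrays 3 of the 9 were lower, and at equal hybridisation controls 2. Efnb2, an ephrin of synapses and arteries, read 8.31, 4.61, 7.54, 8.44 and 9.50 in High and 9.67, 9.58, 10.08, 9.94 and 8.59 in Low Exploration on 1419638_at. High array 2 was far below the others, and the difference was -1.89 with an SE of 0.73 (limma adjusted p = 0.11), while 1419639_at of the same gene gave -0.07. Efna3, the ligand of Epha4 on astrocytes that limits spines, gave -1.24 on 1431170_at (SE 0.47, limma adjusted p = 0.11) and 0.22 on 1455344_at. Efna5 differed by -0.54 as deposited and by 0.09 at equal hybridisation controls, and Efnb3 by -0.45, which became 0.09 with centred arrays and 0.18 at equal hybridisation controls.

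Eph receptors are tyrosine kinases, and A-type receptors guide hippocampal afferents and hold spines in check. Of their 16 tested A-type probe sets 4 had an unadjusted p under 0.05, all higher (25%, against 9.67% of all tested probe sets in that direction). They were Epha5 1435286_at and 1444690_at, Epha7 1452380_at and Epha4 1429021_at. All of these groups overlapped as deposited. The background share depends on signal and scaling. It was 17.6% among probe sets above the 75th percentile of mean signal, where all 4 lie, and 23.0% of all tested with centred arrays. The share of A-type probe sets is not given under either setting, so the 25% cannot be set against these shares. The A-type receptors stood on both sides of 0, with 7 higher and 9 lower as deposited, and 2 lower with centred arrays or at equal hybridisation controls.

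Epha5, which is strong in the hippocampus, read 12.74, 12.38, 11.13, 11.66 and 11.33 in High and 11.07, 10.74, 9.77, 11.46 and 10.12 in Low Exploration on 1435286_at. Only Low array 4 reached into the High range. The difference was 1.21 (SE 0.44, limma adjusted p = 0.098), and the groups were apart with centred arrays and with equal hybridisation controls. Epha5 on 1444690_at gave 1.13, on 1420557_at -0.10 and on 1437920_at -0.71.

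Epha7, a receptor of developing cortex and of spine maturation, read 12.90, 12.88, 12.34, 11.57 and 11.67 in High and 12.12, 11.45, 10.95, 11.19 and 10.45 in Low Exploration on 1452380_at. All High arrays but 2 were above every Low array, and the difference was 1.04 (SE 0.41, limma adjusted p = 0.12). The other Epha7 probe sets gave 0.60, 0.27 and -0.14, the last positive under all 4 scalings. Epha4, the receptor on spines that collapses them when bound by ephrins, gave 0.95 on 1429021_at (SE 0.41, limma adjusted p = 0.14). Its 1421929_at and 1439757_s_at gave -0.49 and -0.35, which both turned positive with centred arrays (0.05 and 0.19) and at equal hybridisation controls (0.14 and 0.28).

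Among B-type receptors, which sit with glutamate receptors at synapses, Ephb1 gave 0.23 and Ephb3 -1.54 (SE 0.70, limma adjusted p = 0.16). Ephb3 ran from 4.49 to 8.72 in High and from 7.53 to 9.68 in Low Exploration. Below the filter, Epha1 on 1432399_a_at was lower with no overlap, reading 4.15, 3.73, 6.07, 4.30 and 5.22 in High and 7.47, 7.21, 8.77, 8.11 and 6.31 in Low Exploration. Its difference of -2.88 had a limma adjusted p of 0.096 in the fit without the filter. Over all 147 probe sets the groups did not overlap for 3 higher and 6 lower members, against 1.17% and 4.84% of all 45037.

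**Figure D3:**
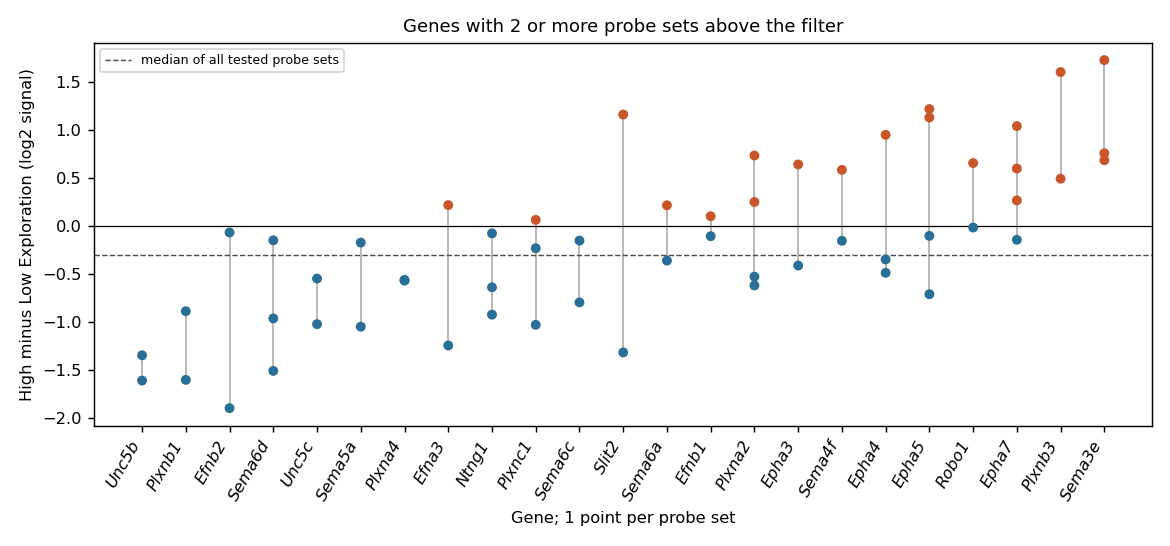
Differences between High and Low Exploration (log2 signal) of each tested probe set for the 23 genes with more than 1, joined by a line for each gene; the dashed line at -0.31 is the median of all tested probe sets. In 12 genes the probe sets stood on both sides of 0, and Slit2 has the widest line, from -1.31 to 1.16.

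Disagreement within a gene was common. Of the 23 genes with at least 2 tested probe sets 11 had them all on one side of 0, 2 higher (Plxnb3 and Sema3e) and 9 lower, and 12 had them on both sides (52.2%, against 54.9% of 4309 genes over the whole array). The median spread within a gene was 1.04 log2 units, against 1.01 over all genes. Epha5 spanned 1.92 and Efnb2 1.82, while Unc5b spanned 0.26 and Plxna4 0.01. The 3′ to 5′ Gapdh difference was larger in High Exploration by 1.00, and its part in these spreads was not tested. All tested probe sets of Plxnb1, Unc5b, Unc5c and Sema6d were on the lower side.

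Counts are also given for ligands and receptors. Of 40 tested ligand probe sets 12 were higher and 28 lower, with a median of -0.16, and of 44 receptor probe sets 16 were higher and 28 lower, with a median of -0.30. The share higher was 30% for ligands and 36.4% for receptors, against 38.1% of all tested. At an unadjusted p under 0.05 the ligands had 2 higher and 10 lower and the receptors 5 higher and 6 lower. Of all tested probe sets 9.67% were higher and 20.5% lower at that p. No test compared them with each other.

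**Figure D4:**
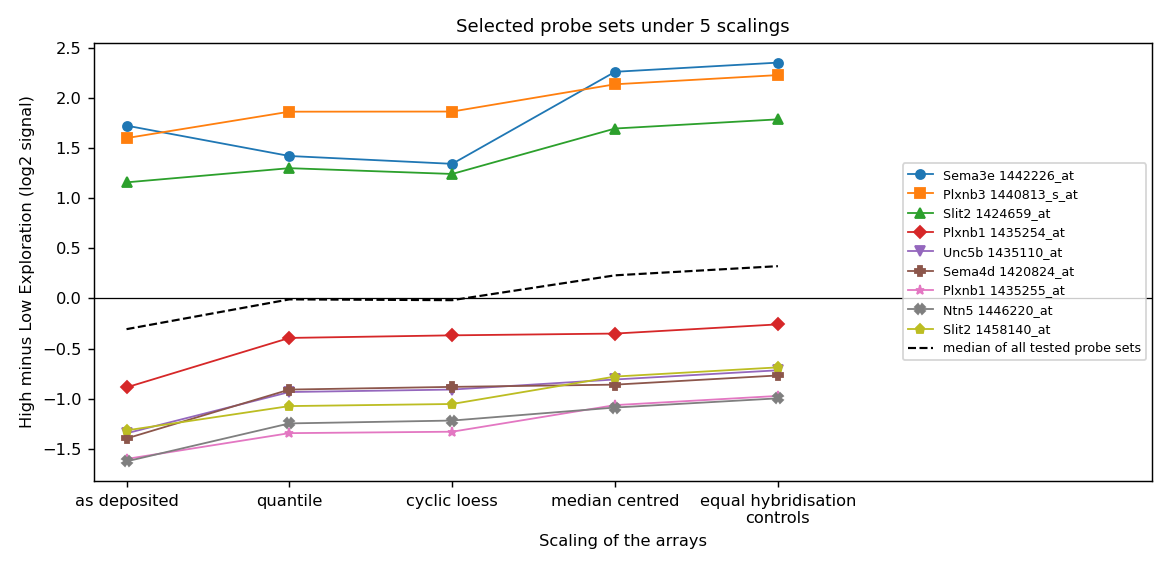
Difference between High and Low Exploration (log2 signal) for the 8 probe sets without overlap and the second Slit2 probe set, as deposited and under 4 other scalings of the arrays; the dashed line is the median of all tested probe sets. No line crosses 0, while the dashed line goes from -0.31 as deposited to 0.32 at equal hybridisation controls. Median centring and equal hybridisation controls move all lines by the same amount, too little to bring any of them across 0.

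Co-receptors and other guidance genes, from a list of 28, were all found and gave 50 tested probe sets, with 0 passing limma adjustment. At an unadjusted p under 0.05 there were 4 higher (8%, against 9.67% of all tested) and 15 lower (30%, against 20.5%), and the median was -0.38 against -0.31 over all tested. The groups did not overlap for 0 higher (against 2.14% of all tested) and 6 lower probe sets (12.0%, against 6.69%). These included Neo1 on 1444295_at (-0.93), a netrin and repulsive guidance molecule receptor, and its ligand Rgmb on 1442811_at (-0.97) and 1459366_at (-1.34). Other probe sets of both genes differed from these, with Neo1 at 0.73 on 1447693_s_at and Rgmb at 0.05 on 1433587_at. The others without overlap were Dscam, Nfasc and Lrrc4c, cell adhesion proteins of axons and synapses. At equal hybridisation controls, which move every difference by the same amount, these 6 differences ran from -0.91 to -0.30. They all lay below -0.63 as deposited, so their sign could not turn.

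Of 51 intracellular effectors 47 were found, and 70 probe sets were tested with 0 passing limma adjustment. At an unadjusted p under 0.05 there were 7 higher (10%, against 9.67% of all tested) and 14 lower (20%, against 20.5%), and the median was -0.22. With no overlap 8 were lower (11.4%, against 6.69%) and 0 higher (against 2.14%). They included Limk1 on 1417627_a_at (-1.40), the kinase that inactivates cofilin, and Cfl1 on 1455138_x_at (-0.88), which encodes cofilin, the protein that severs actin. The exchange factors Arhgef11 on 1443539_at (-1.29), which binds B-type plexins, Tiam1 on 1418057_at (-1.26) and Trio on 1433745_at (-1.30) also lay below in every High array. Gsk3b, a kinase downstream of semaphorins, was lower on 1437001_at (-1.17) and 1451020_at (-2.21), and Pak3 on 1417923_at (-0.80). Several of these genes had other tested probe sets on the higher side, with Trio at 1.15 on 1439552_at and 0.38 on 1454711_at, Pak3 at 1.37 on 1435486_at and 0.53 on 1437318_at, and Gsk3b at 0.53 on 1434439_at. The Cfl1 probe set 1455138_x_at is of the type that can cross-hybridise, and Cfl1 on 1448346_at, below the filter, was higher by 1.62. No direction can be given for Cfl1, Trio, Pak3 or Gsk3b as genes. At equal hybridisation controls these 8 differences ran from -1.58 for Gsk3b to -0.17 for Pak3. They too lay below -0.63 as deposited, so their sign could not turn under this scaling.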

How the data were processed

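Affymetrix mouse arrays of 5 High and 5 Low Exploration hippocampi were analysed. The values are the signal intensities that the authors deposited, made with MAS5, which corrects background and mismatch probes and rescales arrays to a common mean. After trimming 2% at each end this mean was 500 on every array, so a rise in abundant transcripts lowers the others. The labels describe the standard protocol and the methods a double round of amplification, which is not settled here. The design text describes another experiment, so groups follow the sample titles. Replicate numbers follow deposit order and pair nothing. Whether each array's scan or hybridisation formed a batch is not given in the sources used here.

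Of 45101 probe sets, 64 controls were left out. All 147 members matched RefSeq by Entrez identifier, and 0 symbols changed. Log2 intensity was tested with limma 3.58.1 in R 4.3.3 (lmFit and eBayes, 2 groups, no covariates), with Benjamini-Hochberg adjustment over 22518 probe sets above the median log2 intensity. On simulated data, limma recovered 4, 24, 33 and 48 of 50 probe sets changed by 1, 2, 3 and 4 log2 units, with 4 false calls. The simulated noise was normal and independent between probe sets, with 200 probe sets raised and no shift of whole arrays. These counts therefore do not give the sensitivity on the real arrays. Named probe sets were those without overlap, the 2 with the smallest unadjusted p in each of 9 classes, and 14 preset genes, 36 probe sets in all. The genes outside the rule were given in ranges or beside their partners and chosen after their values were seen. Members and lists were chosen with earlier results of these data known. The alternatives were median centring, quantile, cyclic loess, equal hybridisation controls, a pseudocount of 23.0, 2 filters, 1 probe set per gene, array weights and each array left out. The number of arrays limits the precision of every value. Figures used matplotlib 3.10.9.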

Additional observations from a re-analysis of the deposited data

Results flagged for a closer look

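In 8 of the 72 groups of 5 arrays examined among the named probe sets, 1 array lay far from the other 4 by Dixon's ratio, and chance flags about 1 group in 20. The log2 signal of Plxnb1 on 1435255_at was 7.70 in High Exploration array 5, against 8.43 to 8.63 in the other High arrays. Sema4d on 1420824_at was 8.35 in Low Exploration array 3, against 8.89 to 8.98. For Epha4, 1421929_at was 9.62 in High array 3 (others 8.67 to 8.93), 1429021_at was 9.52 in Low array 5 (others 10.32 to 10.55) and 1439757_s_at was 6.39 in Low array 1 (others 8.20 to 8.57). Plxna4 on 1457840_at was 4.58 in High array 1 (others 7.49 to 8.32). In Low array 3, Sema6d on 1459318_at was 7.93 (others 8.58 to 8.83) and Sema7a on 1459903_at was 8.83 (others 8.13 to 8.29).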

How the results depend on the processing

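No paired analysis was possible because the replicate numbers follow deposit order and no animal is shared between the groups. The count of members with a limma adjusted p under 0.05 was 0 of 84 as reported. With each array centred on its median it was 3 of 84 (Plxnb3, Sema3e and Slit2), and 906 probe sets were called in all (4.02%). A pseudocount of 23.0 gave 2 of 84 (Plxnb1 and Sema3e), with 366 in all (1.63%). The filter at the 75th percentile gave 3 of 48 (Plxnb1, Plxnb3 and Sema3e), with 713 of 11259 in all (6.33%). Array weights gave 7 of 84, with 2186 in all (9.71%). The member count was 0 in the other fits on all arrays. With single arrays left out it ran from 0 to 5, and the 5 came without High Exploration array 5 (Ntn5, Plxnb1, Plxnb3, Sema3e and Unc5b 1453269_at), when 1042 were called in all (4.63%). The count higher with no overlap, 3 as reported, was 7 with centred arrays and 6 at equal hybridisation controls, and 3 to 4 with single arrays left out. The count lower with no overlap, 5 as reported, was 2 with centred arrays, 3 with quantile normalisation, 3 with cyclic loess, 2 at equal hybridisation controls, 1 at the higher filter and 3 with 1 probe set per gene, where fewer were tested, and 5 to 9 with single arrays left out, with 9 without High array 5. As deposited, 2.14% of all tested probe sets were higher and 6.69% lower with no overlap. Those shares are not given here under the other settings, so these counts have no background beside them. The median member difference, -0.25, became 0.28 with centred arrays and 0.38 at equal hybridisation controls, and was -0.36 to -0.18 with single arrays left out. The causes were not tested.

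Signs turned for 10 named probe sets, whose differences as deposited ran from -0.57 to -0.02. With centred arrays the differences were 0.091 for Efnb3, 0.049 for Epha4 1421929_at, 0.19 for Epha4 1439757_s_at, 0.39 for Epha7 1427528_a_at, 0.46 for Ntng1 1449286_at, 0.52 for Robo1 1445549_at and 0.49 for Sema7a. At equal hybridisation controls they were 0.086 for Efna5, 0.18 for Efnb3, 0.14 and 0.28 for these Epha4 probe sets, 0.48 for Epha7, 0.55 for Ntng1, 0.060 for Plxna4 1441371_at, 0.067 for Plxna4 1457840_at, 0.61 for Robo1 and 0.58 for Sema7a. Quantile normalisation gave 0.19 for Epha4 1439757_s_at, 0.27 for Epha7 and 0.40 for Sema7a, and cyclic loess gave 0.21, 0.25 and 0.44 for these and 0.021 for Plxna4 1457840_at. With single arrays left out the ranges were -0.33 to 0.0070 for Epha7 1427528_a_at, -0.14 to 0.012 for Ntng1 1449286_at, -0.93 to 0.085 for Plxna4 1457840_at, -0.19 to 0.15 for Robo1 1445549_at and -0.37 to 0.19 for Sema7a. The other 26 named probe sets kept their sign in every fit that tested them. The number of arrays, and the 63 members below the signal filter, limit what could be detected.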
